A study of Mus musculus with 16 samples.

Results

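The genes described here make fatty acids and introduce unsaturated bonds into them. The 10 genes, of 45777 listed in the expression table, were chosen by their role in the pathway and matched by symbol: Acly, Acss2, Fasn, Scd1, Scd2, Fads2, Elovl5, Elovl6, Srebf1 and Pnpla3. All 10 were among the 16209 genes with a count above 0 in every tumor, which were the genes tested. B16F10, a mouse melanoma line, had been injected under the skin of the abdominal flank of 6-week-old lean C57BL/6J mice or obese C57BL/6J-ob/ob mice, which lack functional leptin. RNA of whole tumors was sequenced before therapy (pre-therapy) or after etoposide (ETS), an inhibitor of topoisomerase II that breaks DNA, given as 5 intraperitoneal injections of 20 mg per kg. Each of the 4 groups (lean before therapy, lean after ETS, obese before therapy, obese after ETS) held 4 tumors, which are named by their number in the labels. The groups after ETS were compared with tumors taken before therapy, so that the drug and the further days of growth cannot be told apart. All tumors came from the same cell line, and the sources used here do not say whether the numbered tumors came from separate mice, so the p-values measure the spread between these samples.

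Fatty acid synthesis builds long chains from acetyl-CoA. ATP citrate lyase (Acly) makes cytosolic acetyl-CoA from citrate and Acss2 makes it from acetate, fatty acid synthase (Fasn) joins it with malonyl-CoA into palmitate, the Elovl enzymes lengthen the chain, and the desaturases Scd1, Scd2 and Fads2 introduce unsaturated bonds. Many of these enzymes are targets of the transcription factor SREBP-1, encoded by Srebf1, which insulin and liver X receptors activate and which in turn raises Pnpla3, an enzyme of the lipid droplet surface. In liver and fat the pathway is known to follow nutrition, and many tumors use it to supply membrane lipids.

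Total counts ranged from 47199949 to 61655287 per tumor. Melanocyte markers were present in every tumor, with a summed level of 11260 to 27990 CPM (counts per 1000000 counts of the TMM-scaled library) over 8 genes. Markers of other cells were also found, at differing levels. In lean tumors, 7 of 9 tested macrophage markers and 3 of 6 fibroblast markers were lower after ETS, whereas in obese tumors 7 of 9 and 6 of 6 were higher. Among all tested genes, 22.8% were called lower in lean and 21.2% higher in obese tumors after ETS. In a whole tumor, fewer cells of a type and less RNA per cell cannot be told apart. Skeletal muscle markers exceeded 100 CPM in sum in 4 tumors (lean before therapy 2, lean after ETS 1 and 2, obese after ETS 2). Lep, the gene mutated in ob/ob mice, was at 0 to 0.277 CPM in lean tumors and at 0.124 to 10.7 CPM in obese tumors. The ob allele is a point mutation that leaves a transcript, so these counts do not check the genotype.

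In TPM (transcripts per 1000000 transcripts, adjusted for gene length so that genes can be compared), the 10 genes covered a wide range. Scd2 was the most abundant with a mean of 696.5 TPM over the 16 tumors (lowest 458.3, highest 1042), followed by Acly with 180.2 TPM (104.3 to 291.8). Fads2 averaged 132.7 TPM (66.5 to 192.0), Fasn 90.8 TPM (49.9 to 155.9), Scd1 73.3 TPM (25.3 to 158.5), Elovl5 70.4 TPM (38.6 to 125.2) and Srebf1 51.4 TPM (38.5 to 67.0). Elovl6 averaged 14.9 TPM (5.97 to 23.7) and Acss2 13.2 TPM (8.43 to 20.6), while Pnpla3 was scarce at 0.637 TPM (0.0287 to 1.61). The ranges of neighbours in this order overlapped from Acly down to Srebf1 and between Elovl6 and Acss2, whereas Scd2 above Acly, Srebf1 above Elovl6, and Acss2 above Pnpla3 were separated in all 16 tumors. Srebf1 varied least, with 1.56-fold between its lowest and highest tumor in CPM, and Pnpla3 most, with 68.7-fold.

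**Figure D1:**
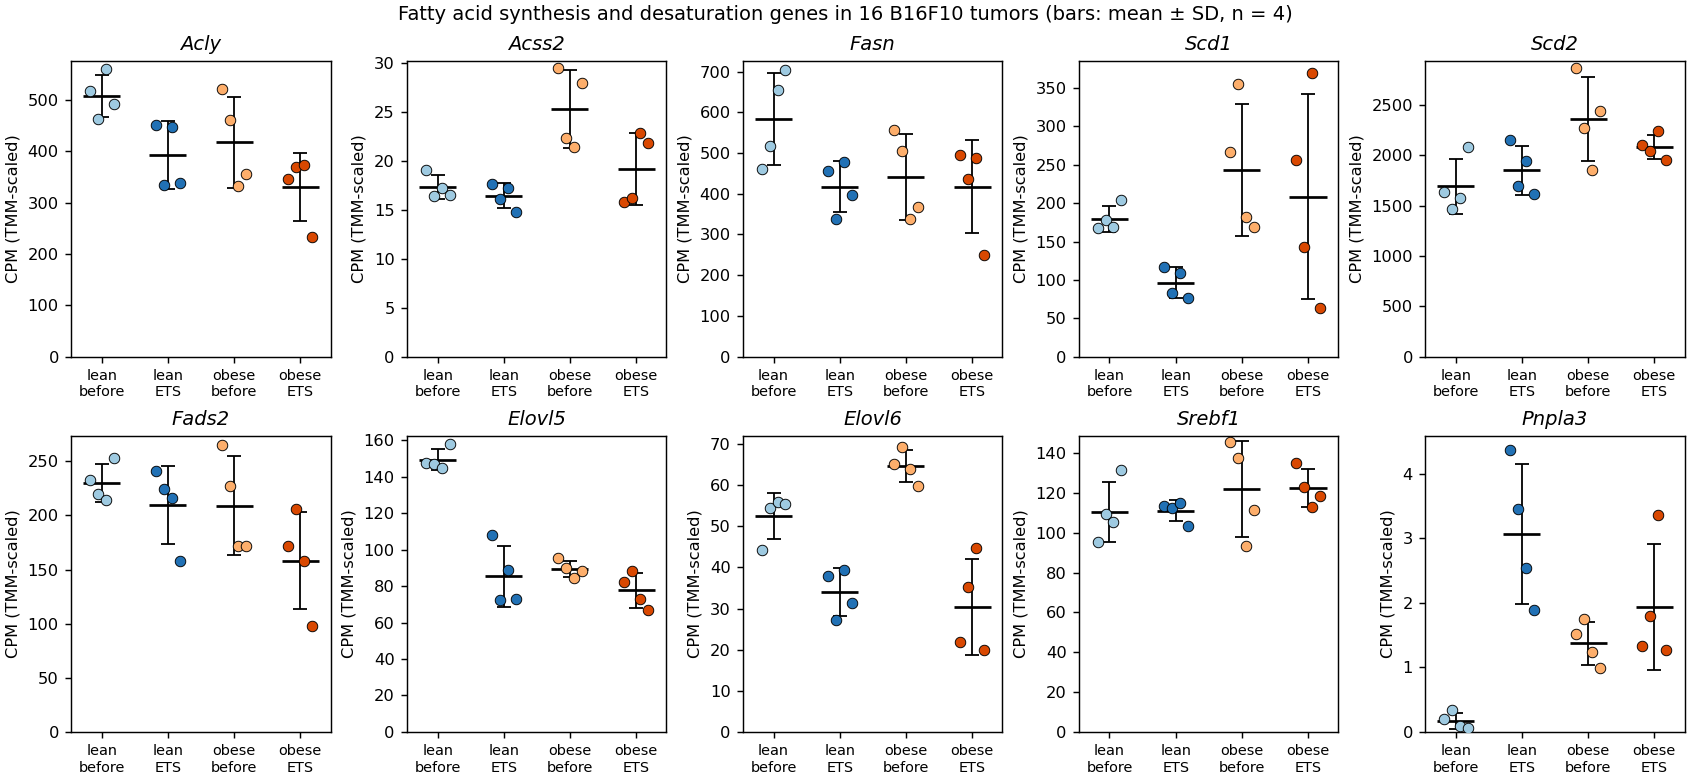
Level of each of the 10 genes in each tumor (vertical axis, TMM-scaled CPM, starting at 0), with 4 tumors per group and bars for the mean ± SD. Pnpla3 lay at 0.0636 to 0.338 CPM in lean tumors before therapy and at 0.989 CPM or more in the other 12 tumors, Elovl5 lay at 145.0 CPM or more in lean tumors before therapy and at 107.8 CPM or less elsewhere, and Srebf1 was similar in the 4 groups.

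In lean tumors, 3 of the 10 genes passed the test after ETS. Pnpla3 was higher, and Elovl5 and Elovl6 were lower. Among all tested genes, 43.8% were called in this comparison (edgeR's quasi-likelihood test, Benjamini-Hochberg adjusted p under 0.05), with 21.0% higher and 22.8% lower, so that 3 of 10 is no larger a share than in the background. The median log2 fold change was -0.252 over the 10 genes and -0.0149 over all tested genes. In obese tumors, Acss2 and Elovl6 were lower after ETS and no gene of the 10 was called higher, against 40.2% of all genes called, 21.2% higher and 19.0% lower. There the medians were -0.215 and 0.00662. Before therapy, 4 genes differed between hosts: Acss2, Scd2 and Pnpla3 were higher and Elovl5 was lower in obese tumors, in a comparison where 26.4% of all genes were called (13.5% higher, 12.9% lower). The medians here were 0.22 over the 10 genes and 0.0193 over all genes. After ETS, none of the 10 was called between hosts by edgeR's quasi-likelihood test (5.58% of all genes were), 1 had an unadjusted p under 0.05 and DESeq2 called 1, Scd1 in both cases.

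**Figure D2:**
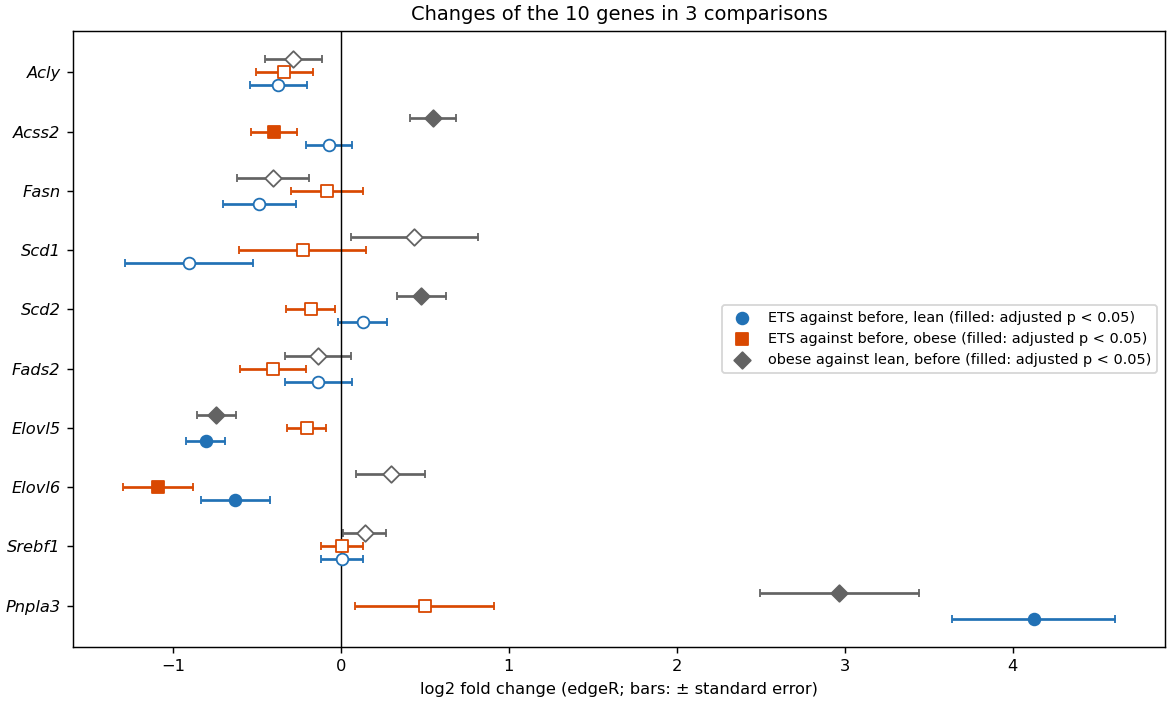
Log2 fold change (horizontal axis, edgeR) of the 10 genes after ETS in lean tumors (circles), after ETS in obese tumors (squares) and in obese against lean tumors before therapy (diamonds), with bars for the standard error and filled symbols for an adjusted p under 0.05. Pnpla3 stands far to the right in the lean comparison at 4.12 and before therapy at 2.97, and Elovl6 is to the left of 0 after ETS in both hosts.

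Acly and Fasn carry carbon from citrate to palmitate. Acly (gene ID 104112, GRCm38.p6 chromosome 11, 100476352 to 100528000) lay at 517.9, 463.3, 559.7 and 492.4 CPM in lean tumors 1 to 4 before therapy and at 452.3, 334.5, 447.2 and 337.7 CPM after ETS. The groups did not overlap, yet the log2 fold change of -0.37 (standard error 0.17) did not pass the test (adjusted p = 0.0877, edgeR). In obese tumors, Acly was at 332.6 to 521.3 CPM before therapy and 233.0 to 373.6 CPM after ETS, and these ranges overlapped (log2 fold change -0.34, standard error 0.17, adjusted p = 0.126). Fasn (gene ID 14104, chromosome 11 from 120805958 to 120825166) averaged 583.9 ± 113.6 CPM in lean tumors before therapy and 417.2 ± 62.9 CPM after ETS (SD, n = 4), and 441.3 ± 104.9 and 417.3 ± 114.1 CPM in obese tumors. Its log2 fold changes were -0.49 (standard error 0.22, adjusted p = 0.0795) in lean and -0.08 (standard error 0.22, adjusted p = 0.799) in obese tumors.

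With the lean tumors alone in the fit, Acly (adjusted p = 0.0433), Fasn (adjusted p = 0.04) and Scd1 (adjusted p = 0.0017) were called lower as well, which brought the count to 6 of 10, with 7225 of all 16209 genes called. Without obese tumor 4 after ETS, which is no part of either lean group but shares the scaling and the estimate of spread, the count was also 6. That tumor was the lowest of its group in 8 of the 10 genes, and the share of all genes lowest in it was not counted. Before therapy, obese tumors 1 and 2 lay above tumors 3 and 4 in 8 of the 10 genes, with Scd2 and Acss2 as the exceptions. The share of all genes in this order was not counted. Tumors 1 and 2 also had the smaller total counts, 47199949 and 47918452 against 57245560 and 56015733. On the TPM scale with a pseudocount of 0.1, the median log2 fold change of all genes in lean tumors was -0.362, and 8 of the 10 genes were called, Pnpla3 higher and 7 lower. On that scale 8679 of all 16209 genes were called, against 7099 in the main fit. Relative to that shift, Acly changed by -0.40, Fasn by -0.47, Scd1 by -0.93, Fads2 by -0.16 and Acss2 by -0.08 on the log2 scale.

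The genes whose log2 CPM tracked Fasn most closely over the 16 tumors were Acaca (Pearson r = 0.918), Wdr7 (0.894) and Mtmr4 (0.891), as a description over tumors that share group and depth. Acaca encodes the carboxylase that makes malonyl-CoA for Fasn, and it was lower after ETS in lean tumors (log2 fold change -0.52, standard error 0.16, adjusted p = 0.0172, edgeR) with -0.19 (adjusted p = 0.364) in obese tumors. Acaca was also the gene closest to Acly (r = 0.938), which was looked up after the values were seen. As Acly and Fasn varied with the same neighbour, their promoters are shown, from 250 bases before to 50 bases after the RefSeq start in GRCm38.p6 and read 5′ to 3′ on the gene's strand. That start need not be the outer end of the gene's span, and the Fasn window lies wholly within the span given above. Capitals mark the CCAAT box on either strand, which 6 of the 8 genes with an entry in the promoter table held, against 41.1% of all genes with one.
Acly (chr11:100527951-100528250, minus strand): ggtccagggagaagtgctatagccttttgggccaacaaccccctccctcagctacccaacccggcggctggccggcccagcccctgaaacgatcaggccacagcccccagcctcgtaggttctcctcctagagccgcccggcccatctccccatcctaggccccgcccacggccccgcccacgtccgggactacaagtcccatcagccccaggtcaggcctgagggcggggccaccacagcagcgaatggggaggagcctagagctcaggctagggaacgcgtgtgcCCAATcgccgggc
Fasn (chr11:120824498-120824797, minus strand): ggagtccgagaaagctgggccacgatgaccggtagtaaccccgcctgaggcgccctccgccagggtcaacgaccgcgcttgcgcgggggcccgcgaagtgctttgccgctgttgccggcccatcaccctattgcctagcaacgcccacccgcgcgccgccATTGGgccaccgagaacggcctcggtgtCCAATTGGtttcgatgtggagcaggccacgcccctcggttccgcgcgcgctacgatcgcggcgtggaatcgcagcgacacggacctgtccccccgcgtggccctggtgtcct

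In the Acly promoter the CCAAT box lies 37 bases after the start, and in the Fasn promoter the 3 matches begin 90, 62 and 59 bases before the start, with the latter pair sharing bases on opposite strands. The letters TCACNCCAC, a core of the sterol regulatory element that SREBP proteins bind, were found on neither strand in the windows of the 8 genes and in 1.44% of all genes. Those letters are then not in these windows, which says nothing of binding elsewhere. The GC box GGGCGG, left in lower case, was in 5 of the 8 genes and in 38.2% of all genes.

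Acss2 (gene ID 60525, chromosome 2 from 155518043 to 155562743) was at 19.1, 16.4, 17.2 and 16.5 CPM in lean tumors before therapy and at 17.7, 16.1, 17.2 and 14.8 CPM after ETS (log2 fold change -0.07, standard error 0.14, adjusted p = 0.693). In obese tumors it was at 29.5, 22.4, 21.4 and 28 CPM before therapy and at 15.8, 16.2, 22.8 and 21.8 CPM after ETS. Before therapy, each obese tumor exceeded each lean tumor, a 1.46-fold difference (log2 0.55, standard error 0.14, adjusted p = 0.00832, edgeR). Non-overlap in this direction was seen for 16% of all genes. After ETS, Acss2 fell 1.32-fold in obese tumors (log2 fold change -0.40, standard error 0.14, adjusted p = 0.0309), although the ranges overlapped. That fall was lost without obese tumor 1 (adjusted p = 0.0935) or 4 (0.0866) before therapy, or 1 (0.128) or 2 (0.0919) after ETS, and with the obese tumors alone in the fit (0.0886). The difference before therapy was not called on the TPM scale (adjusted p = 0.122 with a pseudocount of 0.1). The antisense gene Acss2os overlaps Acss2, and use of read strand in the counting is not given in the sources used here.

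The stearoyl-CoA desaturases Scd1 and Scd2, neighbours on chromosome 19 (44394450 to 44407709 and 44293676 to 44306864), make the monounsaturated acids palmitoleate and oleate. Scd1 (gene ID 20249) was at 168.0, 178.2, 168.7 and 204.4 CPM in lean tumors before therapy and at 116.8, 82.6, 109.6 and 75.9 CPM after ETS. Every lean tumor after ETS was thus below every lean tumor before therapy. The log2 fold change of -0.90 (standard error 0.38) nevertheless missed the threshold in the fit of all tumors (adjusted p = 0.0659, edgeR), and DESeq2 called it (adjusted p = 0.0296). Non-overlap towards lower values was seen for 4 of the 10 genes (Acly, Scd1, Elovl5, Elovl6) and for 20.3% of all genes, and towards higher values for Pnpla3 and 20.8% of all genes.

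In obese tumors Scd1 was at 267.1, 355.3, 182.5 and 168.8 CPM before therapy and at 255.7, 143.3, 369.7 and 63.5 CPM after ETS. The spread within obese tumors after ETS was 5.82-fold, from the lowest to the highest of the 16 tumors. The change after ETS there was -0.23 (standard error 0.38, adjusted p = 0.668), and the interval of ± 2 standard errors ran from -0.98 to 0.53. After ETS, obese tumors had a Scd1 level 2.16-fold that of lean tumors (log2 1.11, standard error 0.38), which did not pass the test (adjusted p = 0.0902). Without obese tumor 4 after ETS the difference was 1.42 and passed (adjusted p = 0.0304). Over all runs with 1 tumor left out, it ranged from 0.68 to 1.42, with an adjusted p of up to 0.268 (edgeR). On the TPM scale it was not called (adjusted p = 0.148 with a pseudocount of 0.1, limma). The closest genes to Scd1 over the 16 tumors were Ehhadh (r = 0.839), Iars2 (0.807) and Slc38a1 (0.799).

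Scd2 (gene ID 20250) stayed high throughout, at 1634, 1468, 1578 and 2079 CPM in lean tumors before therapy and 2154, 1690, 1938 and 1617 CPM after ETS. Obese tumors had 2863, 2267, 1855 and 2437 CPM before therapy and 2099, 2038, 2237 and 1952 CPM after ETS. Before therapy Scd2 was 1.39-fold higher in obese tumors (log2 0.48, standard error 0.15, adjusted p = 0.0247), with overlapping ranges. The call was lost without lean tumor 2 (adjusted p = 0.0778) or 3 (0.065) or obese tumor 1 (0.0827) or 4 (0.06) before therapy, and on the TPM scale (0.139 with a pseudocount of 0.1). With the groups before therapy alone in the fit it was lost too (adjusted p = 0.0649). The log2 fold change after ETS was 0.13 (standard error 0.15, adjusted p = 0.487) in lean and -0.18 (standard error 0.15, adjusted p = 0.35) in obese tumors.

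Within a tumor, the ratio of the desaturases does not depend on scaling. The Scd2 to Scd1 ratio, from TPM, was 7.31 to 9.02 in lean tumors before therapy and 15.7 to 18.9 after ETS, a 2.08-fold difference without overlap (exact two-sided permutation test on the log2 ratio, p = 0.0286, the smallest that 4 against 4 tumors can give, and 0.0763 adjusted over 8 ratio comparisons). In obese tumors the ratio ran from 5.66 to 12.8 before therapy and from 5.37 to 27.3 after ETS (exact permutation p = 0.714). These ratios were chosen after the values of the genes were seen. As a share of the summed TPM of the 10 genes, Scd2 made up 44.5 ± 2.56% in lean tumors before therapy, 53.7 ± 0.802% in lean tumors after ETS, 55.9 ± 3.79% in obese tumors before therapy and 57.9 ± 5.13% in obese tumors after ETS (SD, n = 4).

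**Figure D3:**
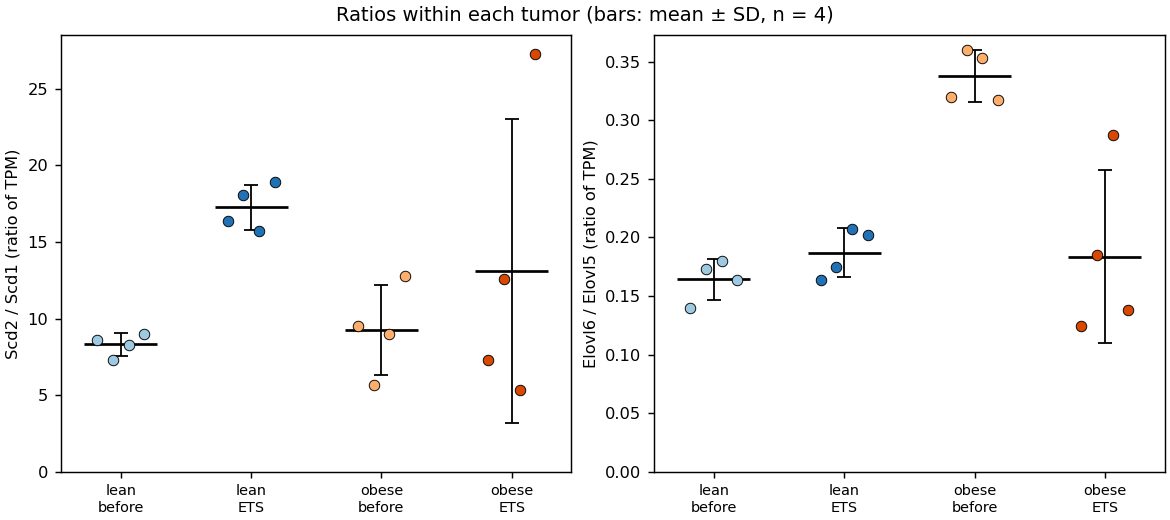
Ratio of Scd2 to Scd1 (left) and of Elovl6 to Elovl5 (right) in each tumor (vertical axes, ratio of TPM values, starting at 0), with bars for the mean ± SD of 4 tumors. On the left, lean tumors after ETS lie at 15.7 or more and those before therapy at 9.02 or less. On the right, obese tumors before therapy lie at 0.317 or more and the other 12 tumors at 0.287 or less.

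Fads2 (gene ID 56473, chromosome 19 from 10062765 to 10101503), the delta-6 desaturase of polyunsaturated fatty acid synthesis, averaged 230.2 ± 17.3 CPM in lean tumors before therapy and 209.9 ± 36.3 CPM after ETS (SD, n = 4). In obese tumors it averaged 209.1 ± 45.6 and 158.3 ± 45.0 CPM. Its log2 fold changes of -0.13 (standard error 0.20, adjusted p = 0.607) in lean and -0.40 (standard error 0.20, adjusted p = 0.117) in obese tumors were not called. The genes with the closest pattern were Mvd (r = 0.949), Gm3571 (0.942) and Mvk (0.929) over 16 tumors, looked up after the values were seen. Mvd and Mvk encode enzymes of the mevalonate pathway.

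The elongases Elovl5 and Elovl6 changed differently. Elovl5 (gene ID 68801, chromosome 9 from 77917365 to 77984519) lengthens polyunsaturated chains, and Elovl6 (gene ID 170439, chromosome 3 from 129532386 to 129638495) lengthens palmitate to stearate. Elovl5 was at 147.6, 147.3, 145.0 and 157.8 CPM in lean tumors before therapy and at 107.8, 72.5, 89.0 and 72.6 CPM after ETS. It fell 1.75-fold (log2 fold change -0.81, standard error 0.12, adjusted p = 0.00012, edgeR) without overlap. In obese tumors it was already at 95.2, 89.8, 84.6 and 88.0 CPM before therapy, within the range of lean tumors after ETS, and at 82.4, 88.5, 72.8 and 66.9 CPM after ETS.

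Before therapy, Elovl5 was 1.67-fold lower in obese than in lean tumors (log2 -0.74, standard error 0.12, adjusted p = 0.000345), and non-overlap in this direction was seen for 14.4% of all genes. In obese tumors the change after ETS was -0.20 (standard error 0.12, adjusted p = 0.18). The difference between the ETS effects, obese minus lean, was 0.60 (standard error 0.17, adjusted p = 0.0217). In that interaction, 16.4% of all genes were called, 10.1% with a higher and 6.35% with a lower effect in obese tumors, and of the 10 genes Elovl5 and Pnpla3 were. The 10 genes had a median interaction of -0.136 and all genes -0.0524. Each of these Elovl5 calls held in every alternative run that gave it a value.

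Elovl6 was at 44.3, 54.6, 56.0 and 55.5 CPM in lean tumors before therapy and at 38.0, 27.2, 39.5 and 31.4 CPM after ETS. It was at 65.2, 69.4, 64.0 and 59.9 CPM in obese tumors before therapy and at 21.8, 35.1, 44.8 and 19.8 CPM after ETS. In both hosts, every tumor after ETS was below every tumor before therapy. The fall was 1.55-fold in lean (log2 fold change -0.63, standard error 0.21, adjusted p = 0.0221) and 2.13-fold in obese tumors (-1.09, standard error 0.21, adjusted p = 0.00102), and the difference between them, -0.46 (standard error 0.29), was not called (adjusted p = 0.308). In obese tumors, non-overlap towards lower values was seen for Elovl6 alone of the 10 genes and for 17.7% of all genes, and towards higher values for none of them and 16.4% of all genes. The lean call was lost without lean tumor 3 before therapy (adjusted p = 0.0518) or lean tumor 2 (0.0713) or 4 (0.0522) after ETS. Without the 4 tumors that held muscle markers it was lost too (adjusted p = 0.215), when 2974 of all genes were called in lean tumors in place of 7099.

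Before therapy, each obese tumor had more Elovl6 than each lean tumor (log2 0.30, standard error 0.20), which was not called (adjusted p = 0.31). It was called with the groups before therapy alone in the fit (adjusted p = 0.0447) and with edgeR's exact test (adjusted p = 0.0402). The ratio of Elovl6 to Elovl5, from TPM, was 0.14 to 0.18 in lean and 0.317 to 0.36 in obese tumors before therapy, 2.06-fold higher without overlap (exact two-sided permutation p = 0.0286, adjusted 0.0763). It was 0.164 to 0.207 in lean and 0.124 to 0.287 in obese tumors after ETS. The genes closest to Elovl6, looked up after the values were seen, were Fndc3c1 and Insig1 (both r = 0.956) and Kif11 (0.95). The 2 promoters below are shown because the elongases differed in their changes, with capitals marking the E-box CACGTG and the CCAAT box on either strand.
Elovl5 (chr9:77917115-77917414, plus strand): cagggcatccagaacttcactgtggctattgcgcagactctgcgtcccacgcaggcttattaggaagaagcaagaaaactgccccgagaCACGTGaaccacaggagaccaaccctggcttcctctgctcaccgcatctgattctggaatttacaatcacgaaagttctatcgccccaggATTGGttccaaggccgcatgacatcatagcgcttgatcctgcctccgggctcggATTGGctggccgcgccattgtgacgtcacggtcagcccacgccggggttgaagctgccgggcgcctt
Elovl6 (chr3:129532136-129532435, plus strand): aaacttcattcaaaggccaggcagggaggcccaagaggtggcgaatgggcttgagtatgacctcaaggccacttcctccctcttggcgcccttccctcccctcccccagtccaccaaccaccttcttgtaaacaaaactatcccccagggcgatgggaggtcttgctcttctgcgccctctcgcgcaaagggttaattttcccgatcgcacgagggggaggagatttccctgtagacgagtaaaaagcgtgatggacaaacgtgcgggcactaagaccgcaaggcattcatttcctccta

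The Elovl5 window held an E-box starting 161 bases before the start, which 8.09% of all genes had and which none of the other 7 genes with a promoter entry had, and CCAAT boxes 71 and 17 bases before the start. The Elovl6 window had none of the 4 motifs searched. The E-box reads the same on both strands, and E-boxes of this kind can be bound by USF and other basic helix-loop-helix factors. Elovl5 overlaps Gm34771 and Elovl6 overlaps Gm35986, and their reads may be shared.

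Srebf1 (gene ID 20787, chromosome 11 from 60199084 to 60224186), the transcription factor of the pathway, was at 95.5, 109.6, 105.7 and 131.6 CPM in lean tumors before therapy and at 113.5, 112.6, 115.2 and 103.5 CPM after ETS. Obese tumors had 145.5, 137.7, 93.5 and 111.5 CPM before therapy and 135.3, 123.0, 113.0 and 118.7 CPM after ETS. The 4 groups overlapped. The log2 fold change after ETS was 0.01 in lean (± 2 standard errors, -0.24 to 0.26) and 0.01 in obese tumors (-0.25 to 0.26), and obese tumors differed from lean ones before therapy by 0.14 (-0.11 to 0.39). Counts per gene do not separate its isoforms or show the processed protein. Srebf1 overlaps Rai1.

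Pnpla3 (gene ID 116939, chromosome 15 from 84167776 to 84189521) showed the largest changes of the 10 genes. Its counts were 12, 22, 6 and 4 in lean tumors before therapy and 245, 173, 142 and 108 after ETS. In CPM this was 0.199, 0.338, 0.0927 and 0.0636 before therapy and 4.37, 3.46, 2.54 and 1.89 after ETS. Every tumor after ETS was more than 5 times as high as any tumor before therapy. The rise was 17.4-fold (log2 fold change 4.12, standard error 0.48, adjusted p = 2.12e-05, edgeR). The few reads before therapy set its precision.

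In obese tumors Pnpla3 was at 1.51, 1.75, 1.24 and 0.989 CPM before therapy, 7.81-fold above lean tumors (log2 2.97, standard error 0.47, adjusted p = 0.000357), and at 1.32, 1.79, 3.36 and 1.26 CPM after ETS. The ranges of the obese tumors before and after ETS overlapped (log2 fold change 0.50, standard error 0.41, adjusted p = 0.354). The ETS effect was smaller in obese than in lean tumors by 3.63 on the log2 scale (obese minus lean -3.63, standard error 0.62, adjusted p = 0.00112). After ETS the difference between hosts was not called (-0.66, standard error 0.41, adjusted p = 0.33). The lean rise, the host difference before therapy and the interaction were called in every alternative. The genes closest to it, looked up after the values were seen, were Mlip (r = 0.954), Prkar1b (0.946) and Zfp667 (0.945). With the group means taken out, r was lower, at 0.688, 0.663 and 0.545. Pnpla3 overlaps Gm20369 and Mir6392. Its promoter is shown as that of the gene with the largest change, with the CCAAT box (on the reverse strand, 99 bases before the start) in capitals.
Pnpla3 (chr15:84167566-84167865, plus strand): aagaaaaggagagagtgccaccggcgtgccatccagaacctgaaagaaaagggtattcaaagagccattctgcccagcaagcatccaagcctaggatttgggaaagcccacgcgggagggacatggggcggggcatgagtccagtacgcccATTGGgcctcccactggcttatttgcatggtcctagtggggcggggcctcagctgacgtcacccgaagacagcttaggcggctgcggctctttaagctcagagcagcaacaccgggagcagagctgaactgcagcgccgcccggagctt

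The other genes of lipid synthesis were taken from 5 lists with 68 genes, of which 61 were tested. In lean tumors after ETS, 20 were called higher and 9 lower, and in obese tumors 21 and 8, against the background shares given above. Those shares are also the background for each list below. Before therapy, 9 were higher and 7 lower in obese tumors. These balances depended on the scaling: with log2(TPM + 0.1), where all genes shifted by medians of -0.362, -0.0814 and -0.106, the lean counts after ETS were 8 higher and 20 lower, the obese counts 17 and 7, and those before therapy 7 and 16. Without the tumors that held muscle markers they were 8 and 3, 15 and 6, and 7 and 6, and before therapy they were 9 and 13 without obese tumor 4 after ETS. Of the list for carbon and reducing power (9 tested), ETS was followed by 4 higher and 1 lower in lean mice and by 2 and 2 in obese mice, and before therapy 3 were higher and none lower in obese tumors. With log2(TPM + 0.1) these splits were 2 higher and 4 lower, 1 and 2, and 2 and 2, and without the tumors with muscle markers 1 and 0, 1 and 2, and 2 and 0. Thrsp, a lipogenesis-associated nuclear protein, rose 5.88-fold in lean tumors (log2 fold change 2.56, standard error 0.38, adjusted p = 0.000123, edgeR) and had 0.32 (adjusted p = 0.498) in obese tumors, with an interaction of -2.23 (adjusted p = 0.00743). Me1, the malic enzyme that supplies NADPH, was 2.55-fold higher in obese tumors before therapy (adjusted p = 5.01e-05). The citrate carrier Slc25a1 rose in lean tumors (0.72, adjusted p = 0.00104) and was higher in obese tumors before therapy (0.53, adjusted p = 0.0118). Acacb rose in both hosts (0.58 and 0.89, adjusted p = 0.0138 and 0.00127), in lean tumors not on the TPM scale (adjusted p = 0.435). G6pdx, another source of NADPH, rose in both hosts (0.45 and 0.40, adjusted p = 0.0257 and 0.0471), in neither on the TPM scale (0.688 and 0.103), and Idh1 fell 1.71-fold in obese tumors (adjusted p = 0.000756).

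Among 15 other desaturases and enzymes of the elongation cycle, 3 were higher and 1 lower after ETS in lean mice and 5 and 1 in obese mice, and before therapy 2 were higher and 1 lower in obese tumors. With log2(TPM + 0.1) the splits were 2 and 2, 4 and 1, and 2 and 5. Fads1, the delta-5 desaturase that acts after Fads2, fell in both hosts (log2 fold changes -0.52 and -0.62, adjusted p = 0.00106 and 0.000395). Fads6 rose in lean tumors (1.15, adjusted p = 0.000446) and was 3.39-fold higher in obese tumors before therapy (adjusted p = 2.08e-05). Hacd1 was higher in these same comparisons (0.69 and 0.72, adjusted p = 0.000245 and 0.000253). Fads3 and Hacd4 rose in obese tumors (1.5 and 1.03, adjusted p = 0.00559 and 0.00214), and before therapy Hacd4 was lower there than in lean tumors (-0.87, adjusted p = 0.00868).

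Of 11 regulators, none was called higher and 3 lower in lean tumors, and 1 higher and 4 lower in obese tumors. With log2(TPM + 0.1) they were 0 and 6, and 1 and 3. Insig1, which retains SREBP in the endoplasmic reticulum and is itself an SREBP target, fell by 0.96 in lean and by 1.12 in obese tumors on the log2 scale (adjusted p = 0.0036 and 0.00157). Srebf2, the regulator of cholesterol synthesis, fell by 0.72 in obese tumors (adjusted p = 0.00133) and had -0.35 (adjusted p = 0.059) in lean tumors. Nr1h3, the liver X receptor alpha that macrophages also express, fell 6.51-fold in lean and rose 3.85-fold in obese tumors (adjusted p = 0.00365 and 0.0262). It moved with the macrophage markers, whose sum had a median of 1054 CPM in lean tumors before therapy, 234.7 after ETS, 110.9 in obese tumors before therapy and 563.1 after ETS. Usf1 fell by 0.57 in lean tumors (adjusted p = 0.000631), and before therapy 2 regulators, Nr1h3 and Usf1, were lower in obese tumors, against 5 with log2(TPM + 0.1).

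Of 19 genes of glycerolipid assembly and storage, 11 were higher and 3 lower after ETS in lean mice, and 13 were higher and none lower in obese mice. Among all tested genes, 21.0% were higher and 22.8% lower in lean, and 21.2% and 19.0% in obese mice. On the TPM scale with a pseudocount of 0.1, the lean split was 4 higher and 6 lower and the obese one 11 and 0, so that the balance of lean calls depended on scaling. The median log2 fold change of the lean list stayed above 0 there, at 0.122 with all genes at -0.362. In the main fit these medians were 0.479 and -0.0149. Without the 4 tumors that held muscle markers, which left 2 lean tumors after ETS, the splits were 4 and 0 in lean and 9 and 0 in obese tumors. Lpin1, a phosphatidate phosphatase, rose 3.43-fold in lean and 1.64-fold in obese tumors (log2 1.78 and 0.72, adjusted p = 1.76e-06 and 0.00159). The lean rise of Lpin1 was also called on the TPM scale, whereas that of Dgat2 (0.78, adjusted p = 0.0278), the enzyme that completes triglyceride, was not (adjusted p = 0.167). Agpat4 rose in both hosts (0.81 in lean and 0.56 in obese tumors, adjusted p = 0.00134 and 0.0151), as did Lpin3 (0.72 and 1.46, adjusted p = 0.0105 and 0.000125) and Plin2, which coats lipid droplets (0.48 and 1.42, adjusted p = 0.0189 and 2.58e-05). On the TPM scale the lean rises of Lpin3 (adjusted p = 0.298) and Plin2 (0.416) were not called. Mgll rose 3.48-fold in obese tumors (adjusted p = 0.00295) and had 0.05 (adjusted p = 0.921) in lean tumors. Before therapy Dgat2 was 4.47-fold higher and the lipase Mgll 5.72-fold lower in obese tumors (adjusted p = 4.88e-05 and 0.000433). Of 7 genes of mitochondrial fatty acid synthesis, 2 were higher (Ndufab1 0.52, Cbr4 0.37) and 1 lower (Oxsm -0.32) after ETS in lean mice, and Lias alone was lower in obese mice (-0.30). On the TPM scale the lean rises were not called, and Cbr4 had the opposite sign (-0.006). Before therapy, Lias (0.43, not called on the TPM scale, adjusted p = 0.121) and Ndufab1 (0.39) were higher and Oxsm (-0.37) lower in obese tumors.

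**Figure D4:**
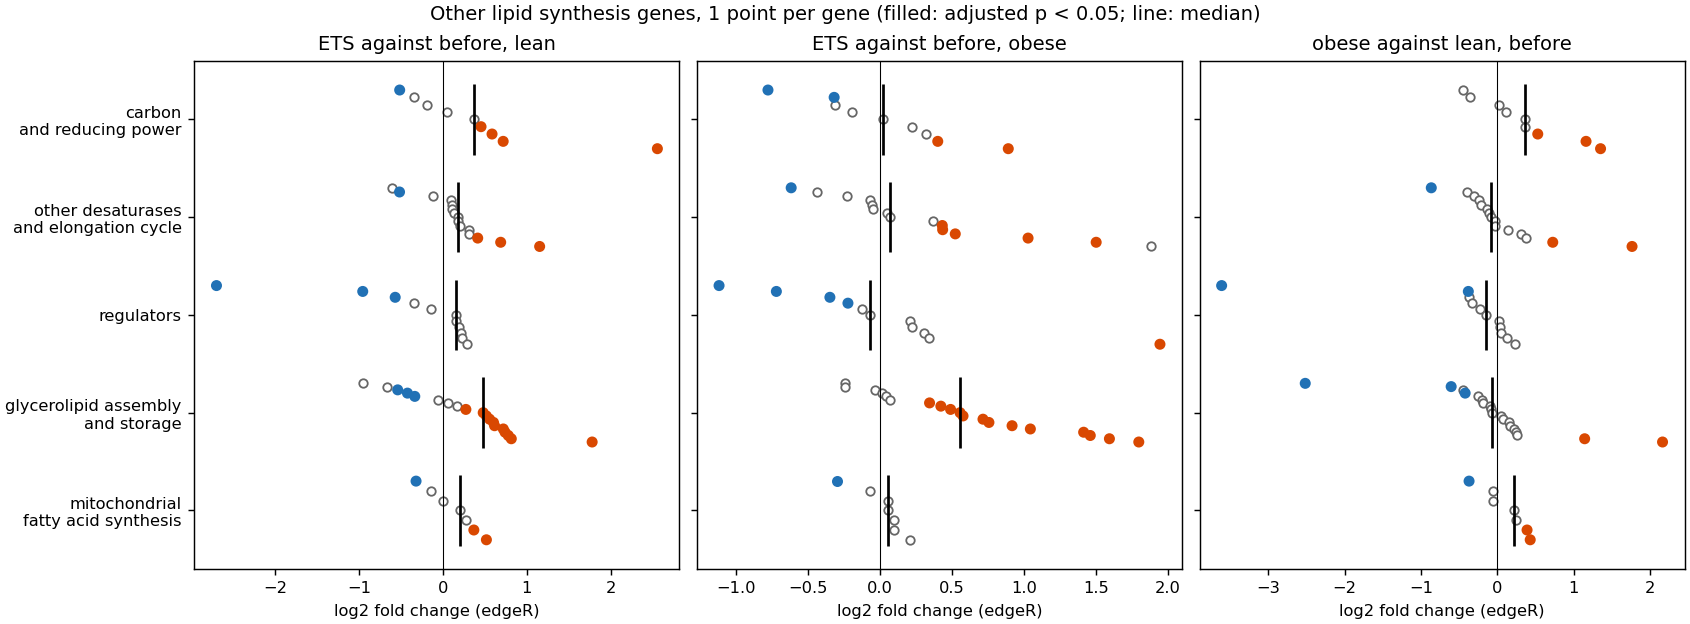
Log2 fold change (horizontal axes, edgeR) of each tested gene of the 5 lists, 1 point per gene, after ETS in lean tumors, after ETS in obese tumors and in obese against lean tumors before therapy, with filled points for an adjusted p under 0.05 and a line at the median. The glycerolipid list has a median of 0.479 in the lean and 0.557 in the obese panel, and lies lower on the TPM scale.

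Markers of fat cells, which express many of these genes, differed in level between the groups. The summed level of 10 adipocyte markers was 10.3 to 29.4 CPM in lean tumors before therapy, 7.66 to 22.5 CPM in lean tumors after ETS, 13.6 to 118.7 CPM in obese tumors before therapy and 66.5 to 271.8 CPM in obese tumors after ETS. Of the 10, Fabp4 alone had a count above 0 in every tumor and was tested, and it was higher after ETS in obese tumors. In lean tumors after ETS, 4 of the markers were at 0 in each tumor. Adipoq, a defining marker, was at 0 to 0.499 CPM in lean tumors, at 0 to 5.30 CPM in obese tumors before therapy, and at 0.14 to 5.44 CPM in obese tumors after ETS, where tumor 4 was the lowest. Obese tumor 4 after ETS was also the lowest of its group in Scd1, Fasn and Acly and the highest of the 16 in fibroblast markers (5646 CPM in sum). It was the lowest of the 16 in melanocyte markers (11260 CPM in sum) and the highest of its group in macrophage markers (1058 CPM). The part of these cells in the levels of the 10 genes was not tested. Melanocyte markers were lower in obese tumors before therapy for 4 of 8 genes, where 12.9% of all genes were called lower. Of the markers of the other cells, 1 of 5 endothelial genes was lower in lean and 4 were higher in obese tumors after ETS, and of 3 muscle genes 1 was higher in obese tumors. The single tested keratinocyte gene was higher in obese tumors, and of 2 sebocyte genes 1 was lower in lean and 1 higher in obese tumors. Obese tumor 2 after ETS had 322.9 CPM of muscle and 145.9 CPM of keratinocyte markers in sum. The rest of its group had at most 4.66 and 2.97 CPM. Without the tumors that held muscle markers, no muscle gene was called higher in obese tumors, and the keratinocyte gene still was.

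**Figure D5:**
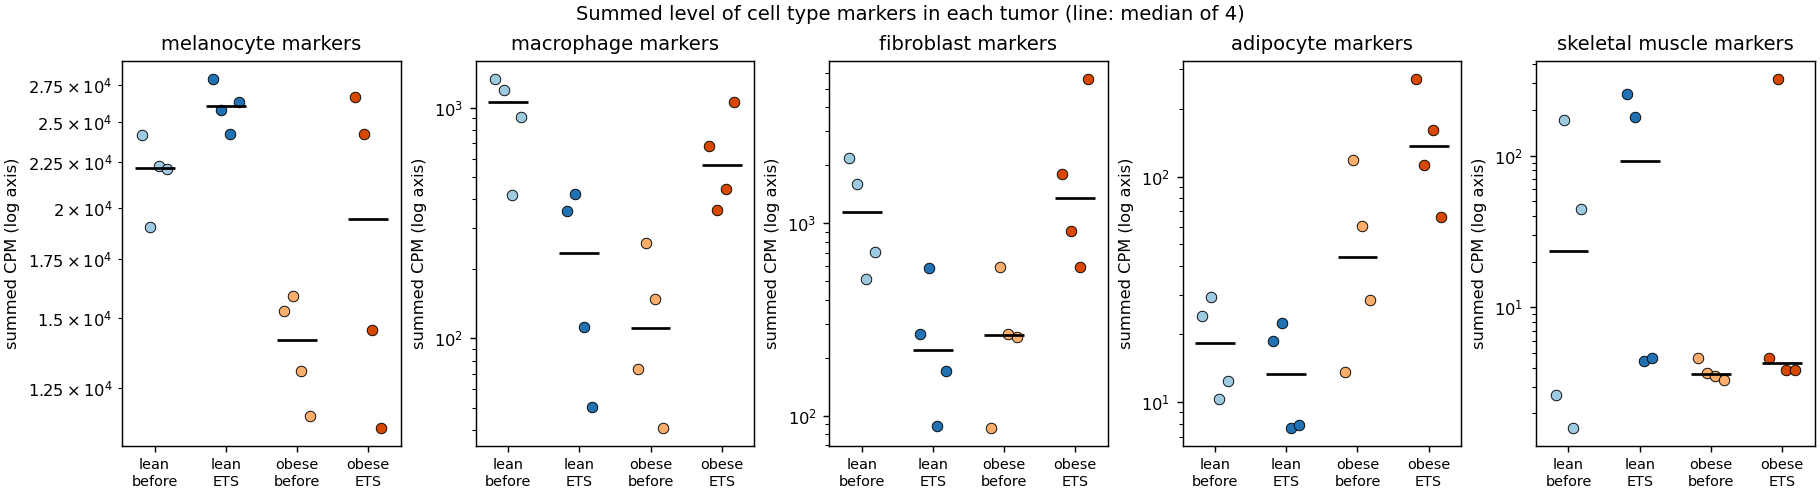
Summed CPM of melanocyte, macrophage, fibroblast, adipocyte and skeletal muscle markers in each tumor (vertical axes, log scale), with a line at the median of 4 tumors. Adipocyte markers reach 271.8 CPM in obese tumors after ETS and stay at 29.4 CPM or less in lean tumors, and muscle markers exceed 100 CPM in 4 tumors.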

How the data were processed

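The authors aligned stranded, poly(A)-selected reads to mm10 with HISAT2 (2.1.0) and quantified genes with StringTie (2.1.3b), per the labels and the study's methods. The authors deposited unnormalized counts, which are whole numbers. The TPM values the authors deposited were used for levels between genes, ratios and as an alternative, and the deposited FPKM values were not used. Use of read strand in the counting is not given in the sources used here, and reads of overlapping genes may be shared.

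Genes lacking reads in at least 1 of the 16 tumors (29568) were excluded, which left 16209. Counts were scaled by TMM and tested with edgeR's quasi-likelihood test (edgeR 4.0.16, R 4.3.3) with 4 group means, Benjamini-Hochberg adjustment over all tested genes and a threshold of 0.05. Standard errors were derived from the F statistic. Groups are those of the labels. Alternatives were DESeq2's size factors, no exclusion, filterByExpr, DESeq2 1.42.0, the exact test on counts with 1 added, limma 3.58.1 on log2(TPM + 1) or log2(TPM + 0.1), the compared groups alone, the replicate number as a block, each tumor left out, and, chosen after seeing the data, the removal of 4 tumors with muscle markers. Likeness was Pearson's r of log2 CPM (prior count 2). The tests were tested on simulated data. No pair of tumors differed by as little as sampling noise.

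The 10 genes, the 5 lists and the marker lists were chosen with earlier results of these data known. All 10 genes are named, as are, per list and comparison, up to 3 called genes with the largest change at a mean of at least 1 TPM, the 3 genes closest to Fasn and Scd1, and Lep. Positions and promoters are from RefSeq (GRCm38.p6), whose gene table held 45679 of the 45777 identifiers and whose promoter table held 8 of the 10 genes (not Scd1 or Scd2). The list gene Hsd17b8 was not matched by symbol.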

Additional observations from a re-analysis of the deposited data

Results flagged for a closer look

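The ETS effect on Pnpla3 differed between hosts, by -3.63 on the log2 scale (obese minus lean, adjusted p = 0.00112, edgeR's interaction), with 4.12 in lean and 0.50 in obese tumors. The ETS effect on Elovl5 differed by 0.60 (adjusted p = 0.0217), with -0.81 in lean and -0.20 in obese tumors.

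Of the 40 sets of 4 tumors (10 genes in 4 groups), 2 had a tumor far from the others by Dixon's criterion, where chance gives about 1 in 20. Obese tumor 4 after ETS had 233.0 CPM of Acly, below the other tumors of its group, and lean tumor 1 before therapy had 44.3 CPM of Elovl6, below the others of its group.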

How the results depend on the processing

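The 11 called differences of the 10 genes kept their direction in all 282 alternative values and their call in 259, and the 39 that were not called changed sign in 69 of 998 values and were called in 30. In lean tumors, the 3 genes called after ETS became 6 with the exact test, 7 with log2(TPM + 1), 8 with log2(TPM + 0.1), 6 with the lean tumors alone and 5 with the replicate block, and 2 to 6 when a tumor was left out (6 without obese tumor 4 after ETS). Of all 16209 genes, 7099 were called in the main fit. In the same order up to the replicate block, the alternatives called 7274, 8632, 8679, 7225 and 7754. In obese tumors, the 2 called became 1 without the exclusion of low counts, with the exact test, with the obese tumors alone or without the tumors with muscle markers, and 1 to 2 when a tumor was left out (1 without obese tumor 1 or 4 before therapy or 1 after ETS). Before therapy, the 4 genes that differed between hosts became 2 on both TPM scales and 2 without the tumors with muscle markers, where Acss2 (adjusted p = 0.0527) and Scd2 (0.134) were lost. With the exact test they became 5, with Elovl6 added. With the compared groups alone the count stayed at 4, with Elovl6 called and Scd2 lost. After ETS, the count of 0 became 1 with DESeq2 and 0 to 1 when a tumor was left out (1 without obese tumor 4). The interaction called 2 genes in each alternative that gave it.

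Same-numbered tumors of different groups correlated in their deviations from the group means by -0.112 to 0.452 over 24 pairs, of which 11 exceeded 0.1. Tumors with different numbers ran from -0.583 to 0.505. These values do not settle whether the numbers pair the tumors. The main fit did not use the numbers. With the replicate block, the lean count was 5 and the other 4 counts stayed at 2, 2, 4 and 0. Pnpla3 rested on 4 to 22 reads in lean tumors before therapy.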
